A study of Bos taurus with 8 samples.

Results

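The miRNAs described here mark the vessels and the blood in a piece of tissue. They are bta-miR-126-5p and bta-miR-126-3p, the 2 arms of a hairpin that endothelial cells express, and bta-miR-451, bta-miR-144 and bta-miR-486, which are abundant in red blood cells and their precursors; the prefix for cattle is dropped below. They were found by name in the scanner files and in the value table, as every entry with the stem bta-miR-126, bta-miR-451, bta-miR-144 or bta-miR-486, and they make up 5 of the 763 bovine miRNAs on the array. No other arm or version of these stems is present.

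The tissue was mammary gland of 8 healthy, non-pregnant heifers, 4 Holstein-Friesian (HF, a dairy breed) and 4 Limousin (LIM, a beef breed), taken after slaughter. The sample characteristics give an age of 20 months and the protocol 2 years. All 8 are untreated animals of their breed, and each was hybridised to its own single-colour Agilent array. The animals are biological replicates per the labels, and their number limits the precision of each value.

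The 8 arrays lay on 1 slide in 1 scan, with HF and LIM in separate rows of positions, so breed and slide position cannot be told apart. Between 28.6% and 35.5% of the miRNA spots of an array were well above background, and no spot was saturated. The LIM arrays were the brighter ones: the 75th percentile of signal, taken over probes detected throughout, was 557 to 939 in HF and 943 to 1579 in LIM. HF replicate 2 was the dimmest array and lay apart from the others on the second principal component, at a score of -6.40 where the other 7 lay between -0.039 and 2.18. Of the 7 miRNAs listed as mammary epithelial markers (miR-200a, miR-200b, miR-200c, miR-141, miR-429, miR-205 and miR-375), 6 were detected on all 8 arrays and miR-375 on the 4 LIM arrays only. After the scaling described below, the lowest detected log2 signal of an array was 4.33 to 4.90 in HF and 3.39 to 4.08 in LIM. The LIM mean of miR-375, 4.27, lay below that limit on every HF array, so its detection is not read as a breed difference.

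A miRNA is cut from a hairpin precursor, and usually the arm that is loaded into an Argonaute protein persists while its partner is degraded. The miR-126 hairpin lies within EGFL7, a gene for a protein secreted by endothelium. In mice and zebrafish miR-126-3p is needed for vessel integrity, where it represses SPRED1, an inhibitor of growth factor signalling. miR-451 and miR-144 are processed from a shared transcript that GATA1, the master regulator of the red cell lineage, switches on in mice. miR-451 is unusual in being matured by Argonaute-2 instead of Dicer, and miR-486 lies within ANK1, the gene for the red cell membrane protein ankyrin. Since red cells lose their nucleus but keep small RNA, these miRNAs are used as measures of blood in tissue and plasma. Whole tissue was measured, so more cells of a type and more RNA per cell cannot be told apart.

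Each miRNA had 2 probes that differ by 1 base in length. The sequences show what each signal rests on, because the longer and the shorter probe did not always give a signal. Probes are written 5′ to 3′ as the scanner files list them, and the capital marks the base that only the longer probe has.
miR-126-5p probe: cgcgtaccaaaagtaataatG
miR-126-3p probe: cgcattattactcacggT
miR-451 probe: aaactcagtaatggtaacG
miR-144 probe: ctagtacatcatctatactgtA
miR-486 probe: ctcggggcagctcA

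The stretch of RNA that pairs with each longer probe is its reverse complement, with the base that pairs with the added one in capitals.
miR-126-5p: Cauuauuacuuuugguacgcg
miR-126-3p: Accgugaguaauaaugcg
miR-451: Cguuaccauuacugaguuu
miR-144: Uacaguauagaugauguacuag
miR-486: Ugagcugccccgag

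The longer probes had 21, 18, 19, 22 and 14 bases in this order. Their GC content was 38.1% for miR-126-5p, 44.4% for miR-126-3p, 36.8% for miR-451 and 31.8% for miR-144, against 71.4% for the short probe of miR-486.

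In the array annotation, which uses the UMD 3.1 cattle genome, the probes of miR-451 and miR-144 lie on chromosome 19, at chr19:20796880-20796897 and chr19:20797072-20797092, with 174 bases between them. Both are listed with the larger coordinate first, as is miR-486 at chr27:36261858-36261870, and these listed spans are 1 base shorter than the probes. The probes of miR-126 map to 2 places on chromosome 11. For miR-126-3p these are chr11:108009441-108009458 and chr11:104131458-104131475, and for miR-126-5p chr11:108009400-108009420 and chr11:104131417-104131437. RefSeq's annotation of a later cattle assembly, ARS-UCD2.0, has 4 hairpin genes for these miRNAs, with MIR126 inside EGFL7 and MIR486 inside ANK1.

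miR-126-3p gave by far the most signal. Detection of a probe meant that over 50% of its spots on that array stood well above background, and both probes of miR-126-3p were detected on all 8 arrays. Before any scaling between arrays, the longer probe read 1687, 1568, 3225 and 1829 in HF replicates 1 to 4, and 4192, 5098, 2860.5 and 4722 in LIM replicates 1 to 4. HF replicate 3 thus lay above LIM replicate 3, and the other HF arrays lay below every LIM array. The shorter probe ran from 851 to 1609 in HF and from 1478 to 2517 in LIM.

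miR-126-5p, the other arm, was also detected by both probes on all 8 arrays. Its longer probe read 109, 141, 204 and 179 in HF and 352, 440.2, 259 and 465 in LIM, all before scaling. The unscaled breeds did not overlap, which was so, with LIM above HF, for 39.4% of all tested miRNAs. Without its last base the probe gave far less: 20.4 to 30.7 in HF and 43.1 to 68.9 in LIM.

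miR-451 was detected on all 8 arrays, but by its longer probe alone. That probe read 22.9, 78.0, 45.1 and 18.6 in HF and 61.7, 51.0, 31.8 and 60.8 in LIM, before scaling. The dimmest array of the 8, HF replicate 2, was thus the brightest for miR-451. On it the 30 spots ran from 67.1 to 90.02, and no spot of the other HF arrays reached that range (highest 62.4, on HF replicate 3), while LIM replicates 1 and 4 had spots of up to 72.9 and 68.6. The shorter probe, without the terminal G, stayed between -0.41 and 1.52 on all arrays, with 0% of its spots well above background. A miRNA with 1 probe detected on all 8 arrays and another on none was found for 18 of the 269 tested miRNAs (6.69%), miR-451 among them.

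**Figure D1:**
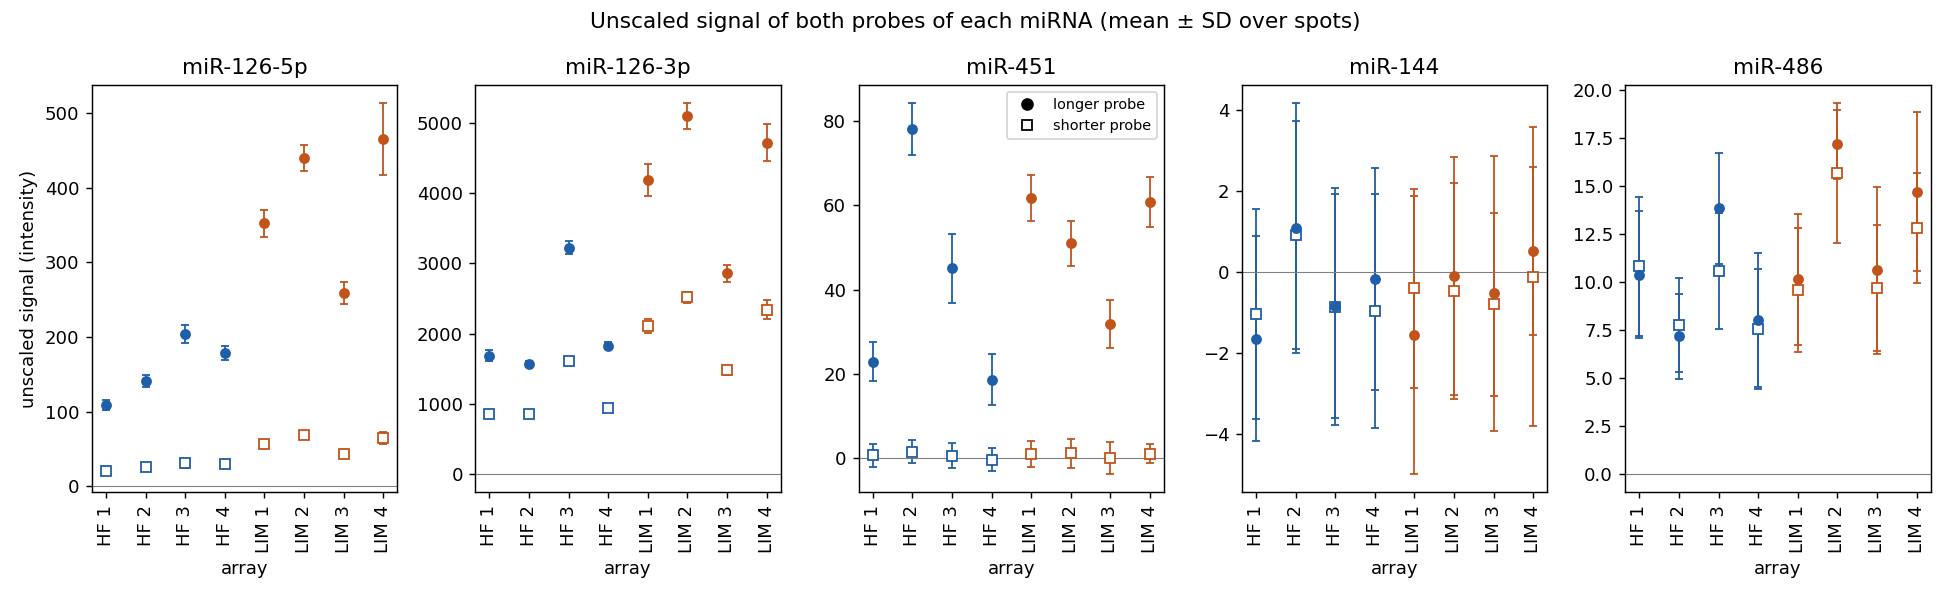
Background-subtracted signal, unscaled, of the longer (filled circles) and shorter probe (open squares) of each miRNA on the 8 arrays, with HF in blue and LIM in orange; bars are the SD over up to 30 spots, and each panel has its own linear axis. The shorter probe of miR-451 sits near 0 while the longer one reads 18.6 to 78.0, miR-144 scatters about 0 with both probes, and miR-486 reads 7.17 to 17.2 with its longer probe.

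miR-144, which is made from the same transcript as miR-451, was not well above background with either probe on any array. Its longer probe read -1.65, 1.07, -0.84 and -0.18 in HF and -1.56, -0.098, -0.53 and 0.52 in LIM. Set against the 7 negative control probes of the same array, both probes of miR-144 lay above the highest control mean on HF replicate 2, at 1.07 and 0.91 against 0.48. Its longer probe lay below the lowest control mean on HF replicate 1 and LIM replicate 1, and all other values lay within the range of the controls. With 0% of its spots well above background on every array, no fold is given for miR-144.

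miR-486 was weak. Its longer probe read 10.4, 7.17, 13.8 and 8.04 in HF and 10.13, 17.2, 10.6 and 14.7 in LIM, above the highest negative control probe mean on every array. Only some of its spots were well above background, at most 42.3%, on LIM replicate 2, and 31.03% on LIM replicate 4, so that it was detected on 0 of 8 arrays by the rule used here. Agilent's own call per miRNA, which sets the authors' deposited value table, counted it as present on HF replicate 3 and LIM replicates 2 and 4. There it has log2 values of -3.03, -2.25 and -2.20, while the other 5 arrays hold the value for undetected miRNAs. Since miR-486 was not detected by this rule in either breed, no fold is given. Its values overlapped between breeds before scaling. After the scaling described next, the longer probe lay at 3.63 to 3.98 in HF and 3.05 to 3.50 in LIM on the log2 scale, without overlap, as did 20.8% of the tested miRNAs with HF above LIM. As these values are below the detection rule, they are not read as a difference.

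To compare the breeds, signals were brought to a common 75th percentile, taken over probes detected throughout, and expressed as log2. limma was then fitted to all 269 miRNAs that every animal of HF, of LIM or of both breeds showed above background. Of the 5 miRNAs, 3 entered this fit and 0 passed at a Benjamini-Hochberg adjusted p under 0.05, while 42.0% of all tested miRNAs did, 13.8% higher in LIM and 28.3% higher in HF. At an unadjusted p under 0.05 the limma fit counted 1 of them, miR-126-5p, and 50.9% of all tested miRNAs. An exact two-sided permutation test of each of the 3 alone gave p = 0.0857 for miR-126-5p, 0.114 for miR-126-3p and 0.714 for miR-451.

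The scaled log2 signal of miR-126-5p was 7.37, 7.93, 7.70 and 8.11 in HF and 8.17, 8.07, 8.04 and 8.49 in LIM. Only HF replicate 4 reached into the LIM range. The means were 7.78 ± 0.32 (SD, n = 4) and 8.19 ± 0.20 (SD, n = 4), a LIM over HF fold of 1.33 with a 95% confidence interval of 1.02 to 1.74 (limma adjusted p = 0.0779). Its difference of 0.41 on the log2 scale exceeded that of 87.0% of the tested miRNAs, whose median was -0.065.

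For miR-126-3p the scaled log2 signal was 11.33, 11.40, 11.69 and 11.47 in HF and 11.74, 11.60, 11.51 and 11.83 in LIM. The groups overlapped through HF replicate 3, which lay above LIM replicates 2 and 3. The means were 11.47 ± 0.16 (SD, n = 4) and 11.67 ± 0.14 (SD, n = 4), a fold of 1.15 with an interval of 0.948 to 1.39 (limma adjusted p = 0.230).

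The scaled log2 signal of miR-451 was 5.12, 7.07, 5.53 and 4.85 in HF and 5.65, 4.96, 5.02 and 5.55 in LIM. HF replicate 2 stood above all others and the remaining 7 arrays were mixed between breeds. HF replicate 4 lay just over the lowest detected signal of its array, 4.82. The means were 5.64 ± 0.99 (SD, n = 4) and 5.30 ± 0.36 (SD, n = 4), with a LIM minus HF difference of -0.35 (95% confidence interval -1.27 to 0.58; limma adjusted p = 0.544). Without HF replicate 2 the HF mean was 5.17 and the difference 0.13 (limma adjusted p = 0.627), so the sign rests on that animal.

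**Figure D2:**
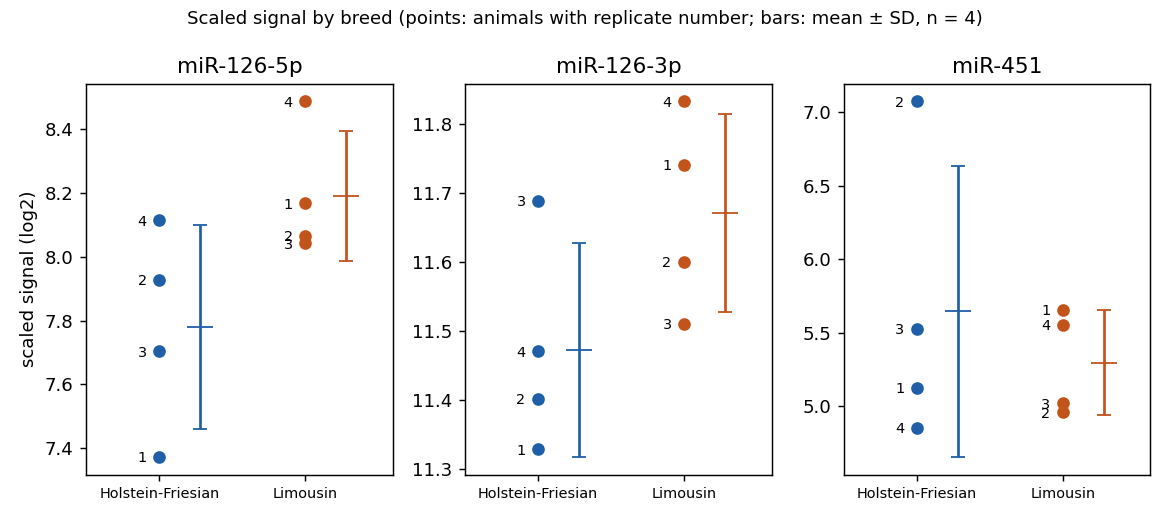
Scaled log2 signal of the 3 detected miRNAs by breed, 1 point per animal labelled with its replicate number, with the mean ± SD (n = 4) beside it; each panel has its own axis. For miR-451, HF replicate 2 at 7.07 stands above the other 7 arrays at 4.85 to 5.65, while the miR-126 arms have no array so far from the rest.

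The size of the differences depends on the scaling, and for miR-451 the direction too, because the LIM arrays were brighter as a whole. Both miR-126 arms were higher in LIM with every scaling. Without any scaling the median log2 difference of all tested miRNAs was 0.79 and 63.9% of them were called higher in LIM. miR-126-5p was then 1.27 higher in LIM (limma adjusted p = 1.83e-04) and miR-126-3p 1.05 higher (limma adjusted p = 0.00156). The unscaled difference of miR-451 was 0.51 and was not called (limma adjusted p = 0.144). Relative to the median of all miRNAs, both miR-126 arms lay above and miR-451 below it with and without scaling. For miR-451 this position rests on HF replicate 2. Without that array it lay above the median, at 0.13 against -0.069, as it did with array weights, at 0.25 against -0.040. With quantile normalization miR-126-3p lay just below the median, at 0.080 against 0.088. In other settings both arms passed, higher in LIM, with the percentile over all probes (as did 38.7% of all miRNAs), in the authors' deposited table of values (30.1%) and with spike-in scaling (63.9%). With cyclic loess miR-126-5p passed and miR-126-3p did not (19.7% of all miRNAs). miR-451 passed in the HF direction with normexp background correction and with none, where 53.9% and 52.8% of all miRNAs did.

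The differences of the miR-126 arms shrank when probe composition was taken into account. After each array was corrected for the GC content and length of the probes, the difference of miR-126-5p went from 0.41 to -0.072 (limma adjusted p = 0.709) and that of miR-126-3p from 0.20 to 0.042 (limma adjusted p = 0.775). The median of all miRNAs was then -0.14, with 9.67% called higher in LIM and 19.3% higher in HF. The corrected miR-451 had a difference of -0.64 (limma adjusted p = 0.186).

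**Figure D3:**
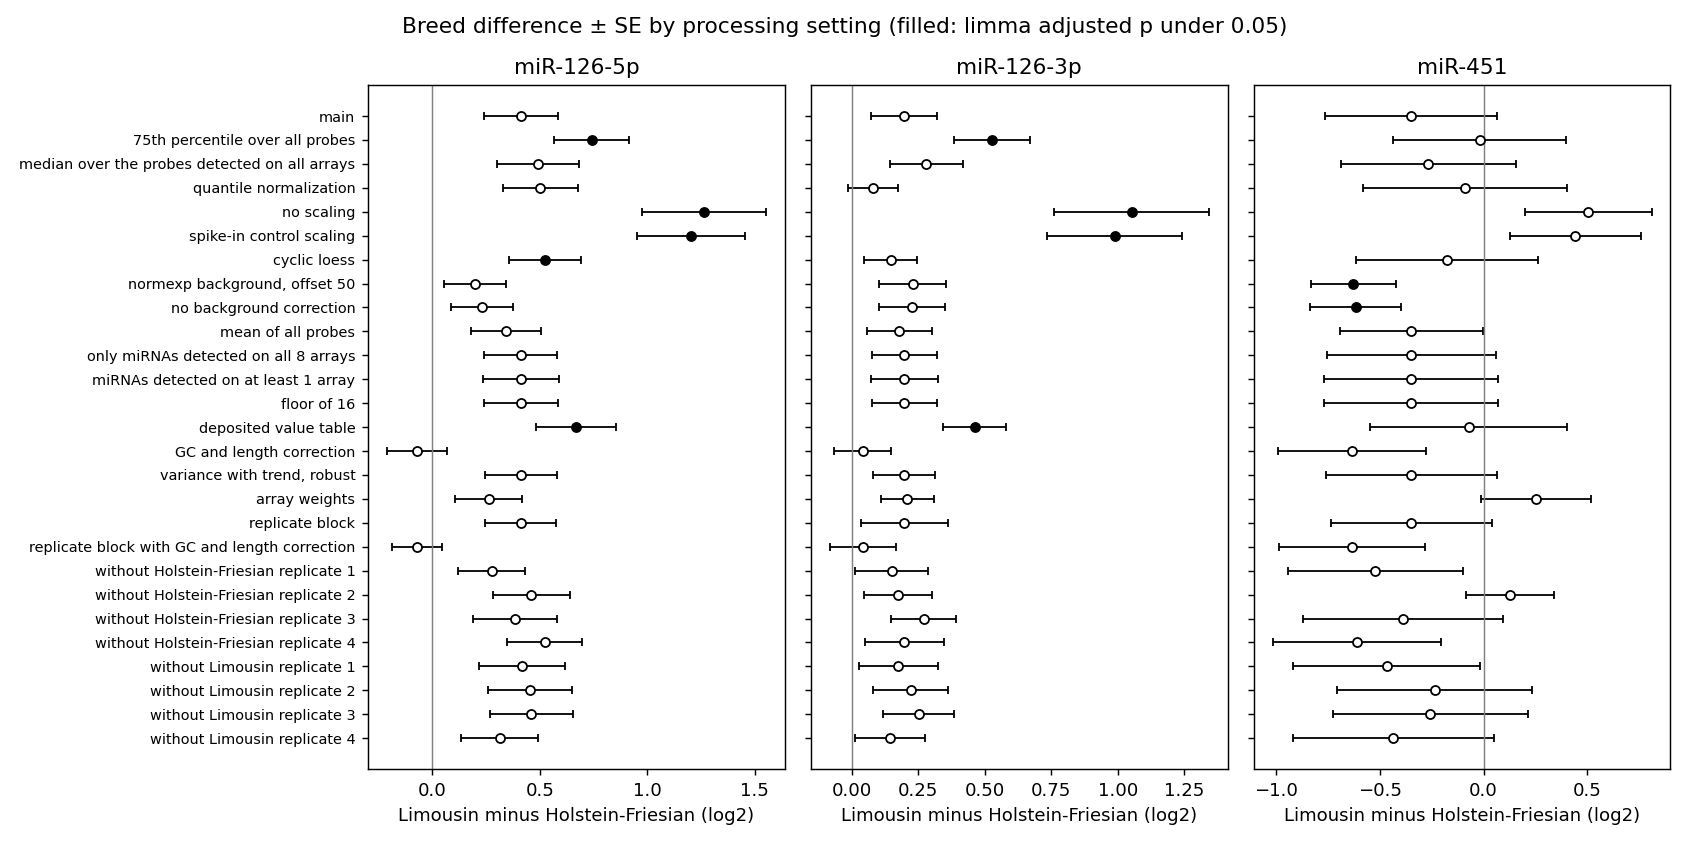
LIM minus HF difference (log2) of the 3 detected miRNAs, with SE, as processed in the text ("main") and under each alternative; filled points passed at a limma adjusted p under 0.05. The miR-126 arms pass with no scaling, spike-in scaling, the percentile over all probes and the deposited table (miR-126-5p also with cyclic loess), and lie near 0 after the GC and length correction; miR-451 lies on both sides of 0.

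Within an array, the difference between 2 miRNAs does not depend on a scaling by 1 factor per array. Such balances were compared by breed for the 2 pairs detected throughout, with p-values adjusted over both; those of miR-451 with miR-144 and miR-486 were not run, because the partners were not detected. The level of a balance has no meaning across probes, so only its change is read. The log2 signal of miR-126-5p minus that of miR-126-3p was -3.96, -3.47, -3.99 and -3.36 in HF and -3.57, -3.53, -3.47 and -3.35 in LIM. HF thus ran from the most to nearly the least negative value, and the LIM animals were close together (SD 0.32 and 0.0999, n = 4 each). The breeds differed by 0.21 (exact two-sided permutation test, p = 0.314, adjusted p = 0.429). Quantile normalization, cyclic loess and the GC and length correction do not shift all miRNAs of an array alike, and the balances were not run with them. With the GC and length correction miR-126-5p was at -0.072 and miR-126-3p at 0.042, so the order of the arms' breed differences turned. The smallest unadjusted p this design allows is 0.0286. At that limit 1 balance alone has an adjusted p of 0.0571, so neither could pass unless both reached it.

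The balance of miR-451 minus miR-126-3p, blood against vessel, was -6.20, -4.33, -6.16 and -6.62 in HF and -6.09, -6.64, -6.49 and -6.28 in LIM. HF replicate 2 stood alone and the other animals overlapped. The LIM minus HF difference was -0.55 (exact two-sided permutation test, p = 0.429, adjusted p = 0.429), and without HF replicate 2 it was -0.048.

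With all 4 animals of each breed, miR-451 had a larger SD than either miR-126 arm. Its SD over the HF animals, 0.99, was exceeded by 2 of the 269 tested miRNAs, against a median SD of 0.25. In LIM its SD of 0.36 was exceeded by 11, against a median of 0.15. It was also set among the 86 miRNAs within 1 log2 unit of its mean level, of which 1 had a larger SD in HF and 6 in LIM. Without HF replicate 2 the SD in HF was 0.34 for miR-451, exceeded by 33 of the 269, and 0.37 for miR-126-5p, exceeded by 24, so the order of these 2 in HF rests on that animal.

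For miR-126-3p, 199 of the 269 had a larger SD than its 0.16 in HF with all 4 animals. Without HF replicate 2 its SD there was 0.18, with 136 larger and a median over all of 0.18. In LIM its SD of 0.14 was close to the median, with 139 larger. For miR-126-5p, 94 were larger in HF with all 4 animals and 66 in LIM. From the lowest to the highest animal, miR-126-3p spanned 1.28-fold in HF and 1.25-fold in LIM, and miR-451 spanned 4.66-fold and 1.62-fold.

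On HF replicate 2 miR-451 stood further from the other HF arrays than the vessel miRNAs did. Against the mean of the other HF arrays its miR-451 was 1.91 higher on the log2 scale, the largest such excess among the 269 tested miRNAs (the next was 1.24), while miR-126-3p was -0.094 and miR-126-5p 0.20 from that mean. miR-486 and miR-144 were below the detection rule on this array, so they show neither such an excess nor its absence. The longer probe of miR-486 had its lowest unscaled signal there, 7.17, but a scaled value of 3.63 just below the 3.64 to 3.98 of the other HF arrays, and miR-144 had its highest signal there. Among the other detected miRNAs of the erythroid list on that array, miR-363 was 0.61 above the other HF arrays, miR-96 0.41, miR-182 0.34, miR-92a 0.27 and miR-25 0.24, and miR-16a, miR-16b and miR-15a were 0.0066 to 0.11 above. Over all tested miRNAs this difference had a median of -0.0415 and ran down to -1.625. Some outside the list were raised more, miR-18a by 1.12 and miR-20b by 0.97, so a rise there was not particular to the list. The 7 leukocyte and platelet miRNAs tested ran from -0.77 for miR-223 to -0.0022 for miR-142-5p. Of the 7 epithelial miRNAs, miR-200a, miR-141 and miR-429 were at 0.65, 0.58 and 0.47, and miR-205, miR-200c, miR-375 and miR-200b at -0.32, -0.23, -0.16 and -0.10. The part of these differences in the miR-451 value was not tested.

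**Figure D4:**
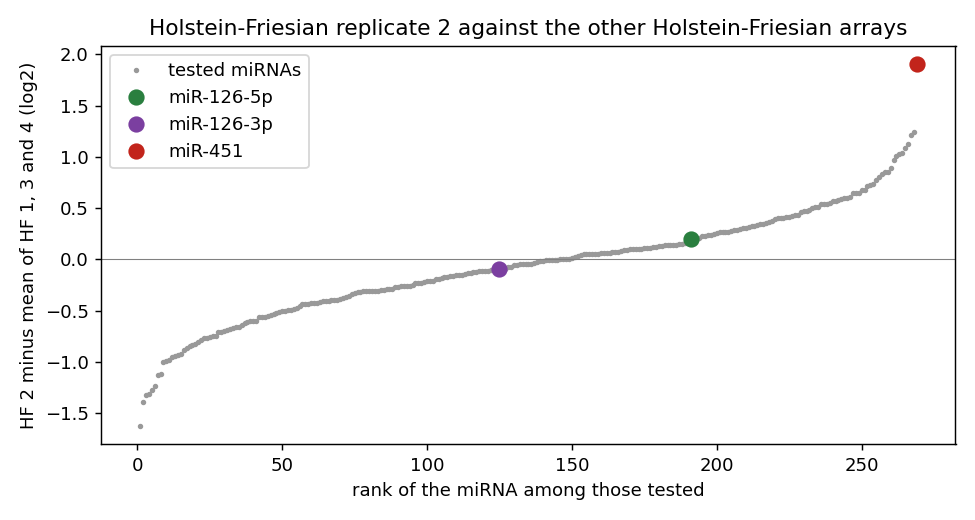
Scaled log2 signal of HF replicate 2 minus the mean of HF replicates 1, 3 and 4, for the 269 tested miRNAs ordered by that difference. miR-451 is the highest point at 1.91, and both miR-126 arms lie near 0.

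The miRNAs most like each one were ranked by Pearson's r over the 8 arrays after the breed means were taken off, among the 231 others detected on all arrays. These values describe arrays that share slide and scaling and carry no test. They were taken without the GC and length correction. The probes of the 2 miR-126 arms differ in both, with 38.1% GC and 21 bases for miR-126-5p and 44.4% and 18 for miR-126-3p. The part of probe composition in these ranks was not tested. Closest to miR-126-3p were miR-26b (r = 0.963), miR-376e (0.948) and miR-146b (0.947). Closest to miR-126-5p were miR-136 (r = 0.897), miR-199b (0.869) and let-7g (0.849). Although cut from the same hairpin, the other arm came only at rank 65 for miR-126-3p and at rank 47 for miR-126-5p, with r = 0.457 between the arms.

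Closest to miR-451 were miR-429, a member of the miR-200 family that maintains epithelial identity (r = 0.956), miR-93 (0.942) and miR-17-5p (0.932), the last 2 from related clusters that are active in dividing cells. All 3 were raised on HF replicate 2, by 0.47, 0.51 and 0.72, and without that array their r with miR-451 was 0.753, 0.638 and 0.601 over 7 arrays. The r of miR-451 with miR-126-3p went from 0.128 over 8 arrays to 0.783 over those 7.

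Wider lists of miRNAs linked to vessels and blood held members that passed in both directions. The 18 entries of the endothelial list include miR-221, miR-222, the miR-23, miR-27 and miR-24 clusters, miR-10a, miR-10b, miR-139, miR-210 and miR-296, many of which other cells express too. Of its 16 tested members 4 rose in LIM (miR-221, miR-222, miR-27b and miR-24-3p), 3 fell (miR-139, miR-210 and miR-296) and 9 did not pass, where 13.8% of all tested miRNAs rose and 28.3% fell, with a median log2 difference of 0.14 against -0.065 for all tested miRNAs. The risers ran from 0.36 for miR-27b to 0.50 for miR-222. miR-210, the miRNA induced by low oxygen, was at -0.52 (limma adjusted p = 0.00736). In the endothelial list the counts were the same, 4 and 3, without HF replicate 2 (20.8% and 32.3% of all miRNAs) and, though not for the same members, after the GC and length correction (9.67% and 19.3%), where miR-23b-3p passed upward and miR-10a and miR-10b downward.

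Of the 13 entries of the erythroid list, 9 were tested, 3 rose in LIM (miR-16b, miR-15a and miR-25, by 0.42, 0.46 and 0.33), 1 fell (miR-363, at -1.07) and 5 did not pass, beside 13.8% and 28.3% of all. Its median was 0.32. It counted 5 up and 1 down without HF replicate 2, beside 20.8% and 32.3% of all, but 0 up and 1 down after the GC and length correction, beside 9.67% and 19.3%. miR-144, miR-486, miR-92b and miR-183 were detected on no array. The miR-15, miR-16 and miR-25 families occur in most tissues. Of the miRNAs that define red cells best, miR-451 did not pass, and miR-144 and miR-486 entered no test.

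The leukocyte and platelet list had 7 of 9 entries tested. Of these 3 rose in LIM (miR-155, miR-146b and miR-142-5p), 1 fell (miR-181a) and 3 did not pass, among them miR-223, the miRNA of granulocytes and platelets, at -0.15 (limma adjusted p = 0.604). Beside these counts, 13.8% of all miRNAs rose and 28.3% fell. After the GC and length correction 2 rose and 0 fell (9.67% and 19.3% of all), since miR-142-5p and miR-181a no longer passed (limma adjusted p = 0.348 and 0.0581). Of the 6 epithelial miRNAs detected on all arrays 0 passed (limma adjusted p from 0.225 to 0.828), and 0 had an unadjusted p under 0.05. Without HF replicate 2, miR-200a and miR-141 passed, higher in LIM by 0.32 and 0.39 (limma adjusted p = 0.0449 and 0.0386), as did 20.8% of all miRNAs. The remaining one, miR-375, entered the fit only through LIM and is not counted. The entry miR-92a belongs to both the endothelial and the erythroid list. The summed scaled signal of the erythroid list was 5325 to 6405 in HF and 6716 to 7838 in LIM, that of the endothelial list 20880.0 to 24142 and 24530.0 to 27490.0, and that of the leukocyte and platelet list 2267 to 2887 and 2614 to 3081. The smooth muscle and pericyte sum went the other way, 4541 to 4955 in HF and 3734 to 4208 in LIM. That of the epithelial list overlapped, 17807 to 19978 and 18840 to 20663. Such sums follow their brightest members, with a mean log2 signal in HF of 10.83 for miR-16b against 5.64 for miR-451. They are therefore not read as cell content. Neither smooth muscle and pericyte marker passed, miR-143 at -0.064 and miR-145 at -0.23 (limma adjusted p = 0.637 and 0.0912). After the GC and length correction miR-145 passed, lower in LIM at -0.37 (limma adjusted p = 0.0169), as did 19.3% of all miRNAs. Without scaling 13 of the 16 endothelial, 7 of the 9 erythroid and 6 of the 7 leukocyte members were called higher in LIM, beside the 63.9% of all miRNAs.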

How the data were processed

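Per the labels' protocols, RNA was extracted with a miRNeasy kit and 100 ng labelled with Cyanine 3-pCp. Per the file headers, the scanner files come from Agilent Feature Extraction 10.10.1.1, and the deposited spot intensity is already background-subtracted but not normalized between arrays. The authors' deposited value table holds log2 values, and each column is log2 of the summed Agilent signal of a miRNA plus a constant, to within 1.77e-05. It served as an alternative. The flags per spot are deposited as 0 or 1, another kind of value with no unit.

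After removal of control and outlier spots, 11 to 30 spots per probe were averaged. Scaled values under 1 were set to 1, and each miRNA was its brightest probe. limma 3.58.1 in R 4.3.3 had breed as its only term, with adjustment over all 269 tested miRNAs. In a simulation of 269 miRNAs with 4 arrays per breed, log2 changes of 0.5, 1 and 2 were recovered for 63.8%, 94.3% and 99.5% of those changed. Its noise was normal and independent, with an SD for each miRNA pooled over both breeds, and the shares are averages over miRNAs. They do not give the recovery for a single member: the SE was 0.416 for miR-451 and 0.124 for miR-126-3p. The miRNAs and lists were chosen with earlier results of these data known. The rule for naming miRNAs was all 5 members, the 3 nearest by correlation, and list members past the threshold; other list members were named after their values were seen. Seeds are not marked, since mature sequences were not used here. The alternatives are given in the closing section.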

Additional observations from a re-analysis of the deposited data

How the results depend on the processing

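The LIM minus HF log2 difference of miR-126-5p passed with the percentile over all probes (0.74), no scaling (1.27), spike-in scaling (1.20), cyclic loess (0.53) and the deposited value table (0.67), and turned to -0.072 with the GC and length correction, alone and together with the replicate block. miR-126-3p passed with the percentile over all probes (0.53), no scaling (1.05), spike-in scaling (0.99) and the deposited table (0.46). miR-451 passed with normexp (-0.63) and without background correction (-0.62). Normexp adds an offset of 50 after subtraction, and without correction a local background of 45.7 to 48.0 remains, beside signals of 18.6 to 78.0. The difference of miR-451 turned without scaling (0.51), with spike-ins (0.44) and with array weights (0.25). Among the settings it was run in, the arm balance turned with normexp only, to -0.031. The balances were not run with quantile normalization, cyclic loess or the GC and length correction. The balance of miR-451 minus miR-126-3p was -0.86 with normexp and -0.84 without background correction. Both had an adjusted p of 0.0571 (exact permutation), the lowest that 1 balance alone can have. Beyond construction, the causes were not tested.

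Leaving out 1 array gave 0.28 to 0.52 for miR-126-5p, 0.14 to 0.27 for miR-126-3p, -0.61 to 0.13 for miR-451 (positive without HF replicate 2), 0.12 to 0.33 for the arm balance and -0.81 to -0.048 for miR-451 minus miR-126-3p, none called (limma or exact permutation, adjusted p from 0.0505 up). A balance could not be called there unless both reached the smallest unadjusted p, 0.0286. The number of miRNAs past the threshold, 113, became 174 without scaling, 175 with spike-ins, 171 with normexp, 60 with the replicate block and the GC and length correction, 73 without HF replicate 4 and 71 without LIM replicate 1; leaving out 1 array gave 71 to 143. Same-numbered arrays of the breeds did not deviate together (r across miRNAs -0.453 to 0.314). The replicate block alone left the differences at 0.41, 0.20 and -0.35 (limma adjusted p = 0.0813, 0.399 and 0.536) and the balances at 0.21 and -0.55 (exact sign-flip, adjusted p = 0.75; the smallest possible is 0.125). The shorter miR-451 probe was not detected and gave no value of its own. Its mean with the longer one is no independent level. miR-144 and miR-486 entered no test.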

Other observations

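The dependence on the last probe base differed among the detected miRNAs. Both probes of miR-126-3p were read on every array, with 851 to 2517 for the shorter and 1568 to 5098 for the longer, while miR-451 was read by its longer probe alone. A table that averages the probes of a miRNA mixes a level and a background reading for miR-451, and the scaled difference between breeds was then -0.35 as before, with an SE of 0.344 in place of 0.416. The shorter probe's part in it rests on 1 background reading, 1.39 on HF replicate 2, as every other array was at the floor. No group of 4 held an animal that stood apart by Dixon's ratio at its 95% critical value for 4 samples; the nearest was the balance of miR-451 minus miR-126-3p in HF, at 0.8, through HF replicate 2.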
